A study of Mus musculus with 20 samples.

Results

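The heat shock chaperones described here are 10 genes of mouse liver, taken by name from a deposited table of 54532 gene entries. They are Ahsa1, Hsp90aa1, Hsp90ab1, Hsph1, Hspa8, Hspa1a, Hspa1b, Dnajb1, Hspd1 and Hspe1. Ahsa1 was selected on a measured value, since its level was higher in sham-operated knockout livers than in sham-operated wild-type livers. That contrast is therefore given below as a description for all 10 genes, without a test. The 10 genes and all gene lists were chosen with earlier results of these data known. Their counts below, also where set beside the share of all entries, are not free of that choice. Polyadenylated RNA of whole liver was sequenced in 20 libraries, 5 in each of 4 groups. Sham_Wt are sham-operated wild-type mice and Sham_KO are sham-operated mice with a knockout of STING, the adaptor that relays cytosolic DNA signals to interferon and inflammatory genes. BDL_Wt and BDL_KO are the same genotypes with the bile duct tied off for 7 days, a model of obstructive cholestasis. Strain, age, the allele of the knockout and the cells it covers are not given in the sources used here. The labels do not say whether each library is a separate animal. The p-values below therefore describe variation among libraries, which may be technical.

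Chaperones bind unfolded or unstable proteins and keep them from aggregating while they fold. HSP70 proteins work with a J-domain partner that brings the substrate and with a nucleotide exchange factor that releases it, and they pass part of their clients to HSP90, whose ATP-driven cycle is sped up by the co-chaperone AHA1. In mitochondria, HSP60 and its lid HSP10 form a closed folding chamber for imported proteins. Many of these genes are switched on by heat shock factor 1 (HSF1), which binds repeats of GAA in alternating orientation, and in liver several of them also follow the daily rhythm of body temperature and feeding.

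RefSeq promoter windows on GRCm38.p6, each with 250 bases before and 50 after a transcript start, were found for 7 of the 10 genes. They are shown because the repeats bound by HSF1 can be read in them directly. The full element searched was GAA-NN-TTC-NN-GAA or TTC-NN-GAA-NN-TTC, 13 bases written here with dashes and with N for any base, on both strands. The short element was GAA-NN-TTC or TTC-NN-GAA, 8 bases, which every full element contains. Capitals mark the matched repeats and all sequences run 5′ to 3′, with positions on GRCm38.
Hspe1 (and, on the other strand, Hspd1), chr1:55088053-55088082, plus strand: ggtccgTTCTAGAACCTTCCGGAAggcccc
Hsph1, chr5:149636280-149636308, minus strand: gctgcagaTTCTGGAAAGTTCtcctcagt
Hspa1b, chr17:34959305-34959372, minus strand: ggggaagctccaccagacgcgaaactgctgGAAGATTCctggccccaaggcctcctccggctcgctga
Hspa1a, chr17:34972223-34972290, minus strand: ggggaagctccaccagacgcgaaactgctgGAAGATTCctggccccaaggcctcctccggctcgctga

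The run shared by Hspe1 and Hspd1 holds 2 overlapping full elements in 18 bases and starts 89 bases before the Hspe1 start. Hspd1 and Hspe1 lie head to head on chromosome 1, so the same letters on the minus strand are part of an Hspd1 window, 144 bases before the start of another Hspd1 transcript. In the GENCODE annotation this run lies inside an exon of an Hspd1 transcript. Hsph1 holds its full element just after the start, in an annotated exon. Hspa1a and Hspa1b hold the same short element 104 bases before their starts, and their printed stretches are identical. The windows of Ahsa1 and Dnajb1 held no match to either pattern. Full elements were present in 0.603% of all 32851 windows, or 0.662% of 27025 genes, and short ones in 15.1% of windows, or 17% of genes. Of the 7 chaperone genes with a window, 3 held a full element and 5 a short one. A match describes the letters only, and no binding was measured.

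Depth and purity of the libraries were as follows. The FPKM values (fragments scaled by transcript length and by mapped fragments, a level corrected for length and depth) gave whole fragments back for 98.1 to 98.5% of low values, which put the depth at 14943866 to 20898314 assigned fragments per library. Tmem173, which encodes STING, lay at 0.588 to 1.06 FPKM in Sham_KO against 0.843 to 2.34 in Sham_Wt, with overlap, and at 0.638 to 2.57 in BDL_KO against 2.60 to 4.60 in BDL_Wt, without overlap. Its transcript was still detected in every knockout library. Hepatocyte markers were abundant in every library, and keratinocyte and muscle markers summed to at most 0.342 FPKM. A list of 6 blood, pancreas and fat markers summed to 699 FPKM in BDL_KO_2371, against 27.7 to 167 in all other libraries. BDL_KO_2359 and BDL_KO_2248 stood apart from their group. Their 8 cholangiocyte markers summed to 83.1 and 63.0 FPKM, against 333 to 561 in the other BDL_KO libraries, 224 to 611 in BDL_Wt and 19.9 to 32.2 in the sham groups. Chaperone differences, list counts and the relations of Ahsa1 to the other chaperones that use BDL_KO are therefore also given without these libraries. For the lists this fit was chosen after seeing the data. Both genotypes and both operations contained libraries with Y-linked transcripts and libraries with Xist, 10 of each kind in all. Differences within each kind stand beside the pooled ones for every called chaperone gene. In the sham contrast and after ligation in wild-type mice they are given for all 10 genes. For the lists of chaperone partners, calls within each kind are given beside the tested comparisons. In the sham contrast, list differences within each kind were not computed.

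All 10 genes were detected, but over a wide range of levels. In the wild-type sham livers the constitutive HSP90 gene Hsp90ab1 was at 279 ± 31.7 FPKM (SD, n = 5), the constitutive HSP70 gene Hspa8 at 207 ± 30.1, the HSP60 gene Hspd1 at 159 ± 9.62, the HSP10 gene Hspe1 at 67.8 ± 8.06 and the inducible HSP90 gene Hsp90aa1 at 43.4 ± 7.31. The remaining 5 genes were below 15 FPKM. Ahsa1, the gene of the HSP90 activator AHA1, was at 14.2 ± 0.987, the J-domain gene Dnajb1 at 7.72 ± 2.02, the HSP110 exchange factor gene Hsph1 at 5.81 ± 1.17 and the heat-inducible HSP70 gene Hspa1b at 4.24 ± 0.851. Hspa1a was close to the limit of counting, at 0.0603 to 0.506 FPKM, with 0 to 55 fragments over all 20 libraries. The filter for testing was 0.5 FPKM in at least 5 libraries. The other 9 genes reached it in all 20 libraries. Hspa1a reached it in 8 ligated and 2 sham libraries, so it was tested because of the ligated groups and had to lean that way; its ligation differences are given as values, and no call is read from them. The open reading frames of Hspa1a and Hspa1b were 99.4% identical over 1929 aligned bases, so reads could be split between them and both values are uncertain. Hspd1 and Hspe1 share 112 exonic bases on opposite strands, and the pseudogene Hspd1-ps3 carried 2.16 to 17.7 FPKM. No source used here says whether the counting used strand.

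**Figure D1:**
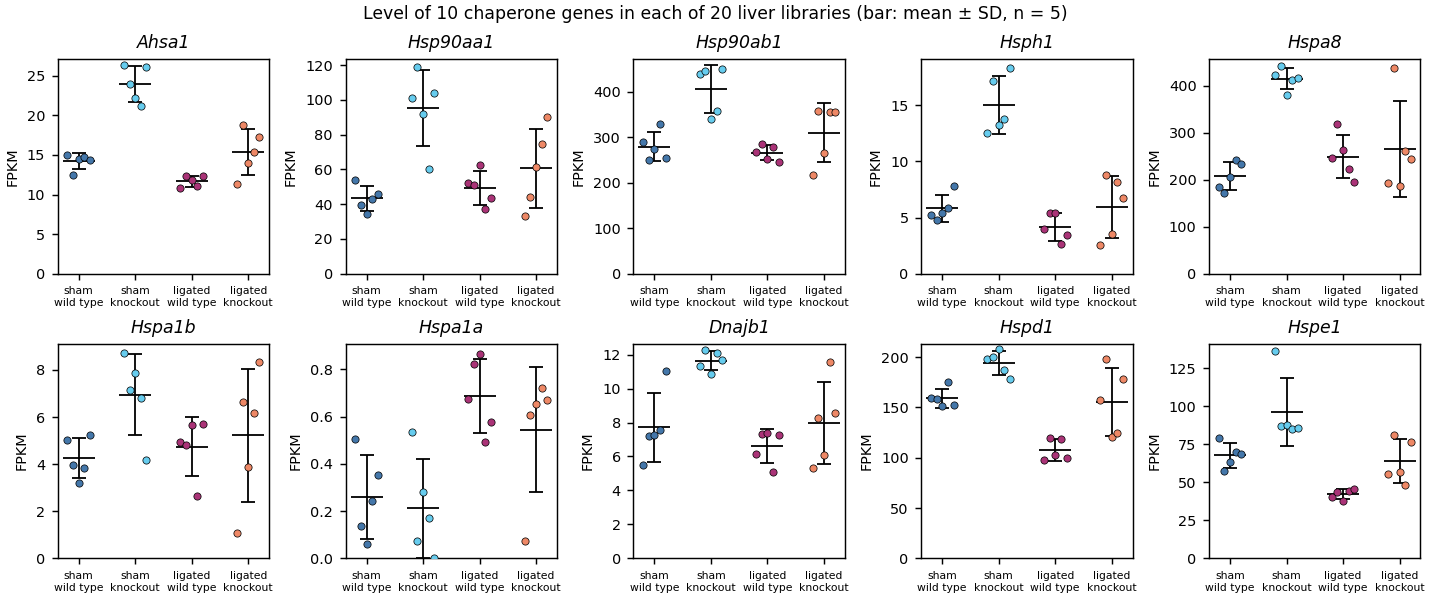
Level of the 10 chaperone genes in FPKM (vertical axes, linear from 0) in the 4 groups, with 1 point per library and the mean ± SD of 5 libraries. Sham_KO has the highest mean for 9 genes, and Hspa1a, with at most 0.866 FPKM in any library, is the exception.

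In sham livers, 7 of the 10 chaperone genes were higher in FPKM in the knockout than in the wild type without overlap. The largest differences were in Hsph1, Hsp90aa1 and Hspa8. Dnajb1, Hspa1b and Hspa1a overlapped, and the mean of Hspa1a was 0.212 FPKM in Sham_KO against 0.259 in Sham_Wt. The 10 genes summed to 1156 to 1356 FPKM in Sham_KO against 706 to 890 in Sham_Wt. They held 0.248 to 0.317% of all FPKM in Sham_KO and 0.175 to 0.218% in Sham_Wt. The sum over all entries reached 547332 FPKM in Sham_KO and 439211 in Sham_Wt. Rescaling FPKM to a common sum (TPM) moved the median of all tested entries down by 0.13 in this contrast. After that rescaling, Hsp90ab1, Hspd1 and Hspe1 overlapped between the sham groups. Ahsa1 was at 26.3, 23.9, 22.2, 21.1 and 26.1 FPKM in the Sham_KO libraries and at 15.0, 12.5, 14.5, 14.7 and 14.4 in Sham_Wt. The lowest knockout library was thus above the highest wild-type library. On the log2(FPKM + 0.5) scale used throughout for differences, Ahsa1 was higher by 0.73 (SE 0.11), or 1.66-fold.

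Both HSP90 genes, the products that AHA1 stimulates, had the same order. Hsp90aa1 was at 101, 119, 91.7, 60.4 and 104 FPKM in Sham_KO and at 54.1, 39.4, 34.5, 43.3 and 45.6 in Sham_Wt, a difference of 1.11 (SE 0.23). Hsp90ab1 was at 438, 446, 340, 356 and 449 FPKM in Sham_KO and at 289, 250, 274, 328 and 254 in Sham_Wt, a difference of 0.54 (SE 0.14). Neither gene overlapped between the groups in FPKM, although Sham_KO_2352 at 60.4 FPKM of Hsp90aa1 lay close to the highest wild-type library. Hsp90ab1 overlapped after rescaling to a common sum.

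The HSP70 system was split by gene. Hspa8, the constitutive cytosolic HSP70, was at 423, 443, 380, 412 and 416 FPKM in Sham_KO and at 184, 172, 206, 241 and 233 in Sham_Wt, 2.01-fold on the log2(FPKM + 0.5) scale. Hsph1, whose product releases nucleotide from HSP70, was at 12.5, 17.1, 13.3, 13.8 and 18.3 FPKM in Sham_KO and at 5.21, 4.82, 5.38, 5.84 and 7.79 in Sham_Wt. Its difference of 1.30 (SE 0.26) was the largest of the 10. The groups were apart for both genes.
Dnajb1, the J-domain partner, was at 10.9 to 12.3 FPKM in Sham_KO and at 5.50 to 11.0 in Sham_Wt, where 1 library, Sham_Wt_2229, reached into the knockout range. Hspa1b lay at 4.20 to 8.73 against 3.19 to 5.22 FPKM and Hspa1a at 0 to 0.534 against 0.0603 to 0.506, both with overlap. These are the stress-inducible HSP70 genes.

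The mitochondrial pair differed less. Hspd1 was at 198, 200, 208, 188 and 178 FPKM in Sham_KO and at 159, 158, 151, 175 and 152 in Sham_Wt, a difference of 0.29 (SE 0.12). Hspe1 was at 136, 86.9, 87.7, 85.3 and 85.5 FPKM in Sham_KO and at 79.2, 57.5, 63.5, 70.0 and 68.6 in Sham_Wt, a difference of 0.49 (SE 0.15). Both were without overlap in FPKM, but not after rescaling to a common sum. In all, 7 of the 10 genes did not overlap in FPKM between the sham groups and all 7 were higher in the knockout. Among the 14059 tested entries, 3.49% were higher without overlap and 4.58% lower, 8.07% together. The sham contrast chose Ahsa1, so nothing is read from that count. Within libraries with Y-linked transcripts and within libraries with Xist, the sham difference was 0.79 and 0.67 for Ahsa1, 1.15 and 0.95 for Hsp90aa1, 0.59 and 0.49 for Hsp90ab1, 1.22 and 0.87 for Hspa8, and 1.41 and 1.28 for Hsph1. It was 0.81 and 0.46 for Dnajb1, 0.35 and 0.20 for Hspd1, 0.58 and 0.34 for Hspe1, 0.76 and 0.38 for Hspa1b, and -0.048 and -0.29 for Hspa1a.

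Genes around the chaperones were compared between the same sham libraries, also as a description. Overlap was again judged in FPKM. In a list of HSF1, its regulators and its heat-inducible partners, 7 of 15 genes were higher in Sham_KO without overlap and none was lower. Of all tested entries, 3.49% were higher without overlap and 4.58% lower. The small heat shock protein gene Hspb1 was at 51.7 ± 18.1 against 19.6 ± 5.75 FPKM, and Chordc1, an HSP90-binding partner, at 8.66 ± 1.07 against 4.73 ± 0.504. Hsf1 itself was at 2.55 to 3.67 FPKM in Sham_KO and at 1.98 to 2.59 in Sham_Wt, with overlap. Of 20 co-chaperone genes, 6 were higher without overlap, among them Stip1, which bridges HSP70 and HSP90, at 50.9 ± 7.62 against 27.9 ± 3.96 FPKM. The same held for 3 of 14 genes of the TRiC chaperonin and prefoldin, 3 of 12 genes of mitochondrial protein quality control and 0 of 12 chaperone genes of the endoplasmic reticulum. The list medians of the log2 difference were 0.31, 0.20, 0.21, 0.020 and 0.14 in that order, 0.62 for the 10 chaperones and 0.012 for all tested entries.

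Temperature-responsive and clock genes differed between the same libraries. Cirbp and Rbm3, which are induced by mild cold, were lower in Sham_KO without overlap, Cirbp at 4.70, 3.27, 3.79, 5.03 and 3.85 FPKM against 10.6, 9.95, 9.66, 9.01 and 6.87 in Sham_Wt. Rbm3 was at 3.56, 3.77, 3.62, 5.48 and 3.95 FPKM in Sham_KO against 6.55, 8.93, 10.8, 7.07 and 8.56 in Sham_Wt. Of 15 tested clock genes, 3 were higher without overlap (Arntl, Cry1 and Nfil3) and 5 lower (Per3, Nr1d1, Nr1d2, Dbp and Tef). The shares of all tested entries were 3.49% higher and 4.58% lower. Nr1d1, a repressor of Arntl, was at 4.33 ± 2.85 FPKM in Sham_KO and 20.1 ± 6.99 in Sham_Wt, and Cry1 at 10.3 ± 2.91 and 3.32 ± 1.36. Time of day and body temperature at collection are not given in the sources used here, and the part these genes' differences have in the chaperone levels was not tested. Among the cell type lists, 6 of 6 Kupffer cell markers lay lower in Sham_KO, 1 of them without overlap. Their summed level was 112 to 180 FPKM against 173 to 296, with overlap. Other lists leaned to 1 side too. The 4 tested neutrophil markers all lay lower. Higher were 8 of 8 stellate, 6 of 6 tested cholangiocyte and 6 of 7 sinusoidal endothelial markers. Hepatocyte markers summed to 51233 to 63243 FPKM against 47439 to 65521. In bulk liver, fewer cells of a type and less RNA per cell cannot be told apart.

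**Figure D2:**
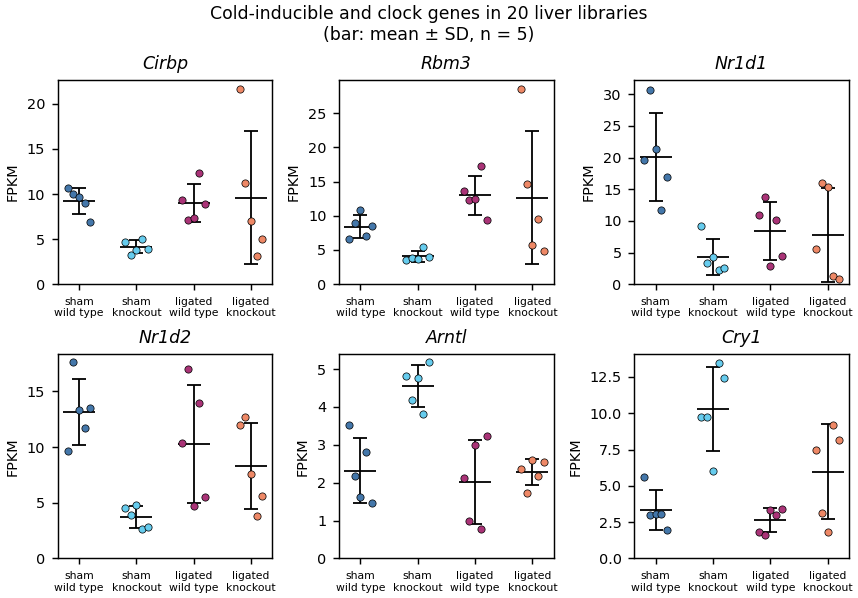
Level of 2 cold-inducible genes (Cirbp, Rbm3) and 4 clock genes in FPKM (vertical axes, linear from 0), with 1 point per library and the mean ± SD of 5 libraries per group. Sham_KO lies below Sham_Wt without overlap for Cirbp, Rbm3, Nr1d1 and Nr1d2 and above it for Arntl and Cry1, while BDL_KO spreads widely, with Rbm3 from 4.79 to 28.6 FPKM.

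After bile duct ligation in wild-type mice, the mitochondrial chaperone pair was lower, and Hsp90aa1, Hsp90ab1, Hspa8, Hspa1b, Hsph1 and Dnajb1 did not pass the test. Hspd1 fell to 97.5, 120, 103, 119 and 99.4 FPKM in BDL_Wt, all below the 151 to 175 of Sham_Wt, a log2 difference of -0.56 (SE 0.12, limma adjusted p = 0.00165). Hspe1 fell to 40.4, 43.6, 37.4, 44.5 and 45.9 FPKM, below the 57.5 to 79.2 of Sham_Wt, a difference of -0.67 (SE 0.15, limma adjusted p = 0.00209). Hspa1a was at 0.493 to 0.866 FPKM in BDL_Wt and at 0.0603 to 0.506 in Sham_Wt, with overlap and at most 55 fragments in a library. Of the 8 genes other than Ahsa1 and Hspa1a, none was called higher and 2 were called lower, where 18.1% of all tested entries were called higher and 17.5% lower, 35.6% together.

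The other 6 had log2 differences between -0.45 for Hsph1 and 0.26 for Hspa8, with adjusted p-values of 0.187 to 0.811 (limma). Ahsa1, described without a test because its selection used the Sham_Wt libraries, was at 10.9, 12.3, 11.8, 11.0 and 12.3 FPKM in BDL_Wt, below every Sham_Wt library. With FPKM rescaled to a common sum (TPM), which moved the median of all tested entries up by 0.29, the Hspd1 and Hspe1 differences were -0.24 and -0.35 and no longer passed the test (limma adjusted p = 0.106 and 0.0581). TPM scaling brought Hspa8 past it at 0.58 (limma adjusted p = 0.0219) and moved the share of higher calls among all called entries to 82%. With quantile normalization Hspa8 was likewise called higher at 0.64 (limma adjusted p = 0.00483), Hspe1 was called lower at -0.39 (limma adjusted p = 0.00526) and Hspd1 at -0.19 was not called (limma adjusted p = 0.133). Within libraries with Y-linked transcripts and within libraries with Xist, the Hspd1 difference was -0.57 and -0.55 and that of Hspe1 -0.73 and -0.57, none past the test.

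Other mitochondrial genes were lower beside Hspd1 and Hspe1. Of 12 further genes of mitochondrial protein quality control, 7 fell and none rose, where 17.5% of all tested entries fell, with a list median of -0.41 against -0.020 for all tested entries. With TPM, 1 of the 12 was called lower and 1 higher, at a median of -0.087, and with quantile normalization 4 were lower. Those fits called 7.06% and 19.3% of all entries lower. Within libraries with Y-linked transcripts and within libraries with Xist, 1 of the 12 was called lower in each. Of all entries, 10% and 3.17% were called lower there. Grpel2, an exchange factor of mitochondrial HSP70, fell by 0.63 (SE 0.18, limma adjusted p = 0.00985), the protease subunit gene Clpp by 0.60 (SE 0.16, limma adjusted p = 0.00639) and the mitochondrial HSP90 gene Trap1 by 0.57 (SE 0.09, limma adjusted p = 5.15e-05). Hepatocyte markers summed to 24972 to 34314 FPKM in BDL_Wt against 47439 to 65521 in Sham_Wt, and 5 of 10 fell. The 6 tested cholangiocyte markers all rose, and 7 of 8 monocyte and macrophage markers did. The part of these shifts in cell types in the lower mitochondrial chaperone levels was not tested.

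Of 15 genes in the HSF1 list, 2 rose and 2 fell in wild-type livers, and of 20 co-chaperone genes 2 rose and 4 fell, where 35.6% of all tested entries were called in either direction. With TPM, 7 genes of the HSF1 list and 4 co-chaperones were called, all higher, where 32.1% of all entries were called higher. Within libraries with Y-linked transcripts, 1 HSF1-list gene and 3 co-chaperones were called higher and 1 co-chaperone lower. Within libraries with Xist, 1 HSF1-list gene was called lower and 1 co-chaperone higher. No TRiC, prefoldin or endoplasmic reticulum gene was called within either kind. Of all entries, 12.2% were called higher and 10% lower in the Y libraries, and 3.31% and 3.17% in the Xist libraries. In the HSF1 list, Hspa4l, an HSP110 relative, rose by 0.66 and Bag3, an HSP70 exchange factor, by 0.36, while Hsf2 fell by 0.59 and the J-domain gene Dnaja1 by 0.54. Among the co-chaperones, Hspa2, an HSP70 known best from testis, rose from 0.782 ± 0.229 to 3.58 ± 2.70 FPKM (SD, n = 5; limma adjusted p = 0.000949) and the myosin chaperone gene Unc45a by 0.75 (SE 0.11, limma adjusted p = 3.84e-05). Fkbp4, an HSP90-bound immunophilin, fell by 0.75 (SE 0.26, limma adjusted p = 0.0301). The prefoldin subunit genes Pfdn6 and Pfdn2 fell by 0.46 and 0.45, and no TRiC subunit gene was called. None of 12 chaperone genes of the endoplasmic reticulum was called with limma, and none was below 0.05 unadjusted. However, 7 were called higher with TPM, 6 with quantile normalization and 2 with voom. Those fits called 32.1%, 18.6% and 24.2% of all entries higher. The calcium-binding chaperone gene Calr, at 298 FPKM in Sham_Wt and 369 in BDL_Wt, had a difference of 0.31 (SE 0.21), and Hspa5, the HSP70 of that compartment, one of 0.54 (SE 0.30). Immediate early genes, transcribed within minutes of many stimuli, rose in 10 of 11 tested cases, with Btg2 up by 3.15.

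**Figure D3:**
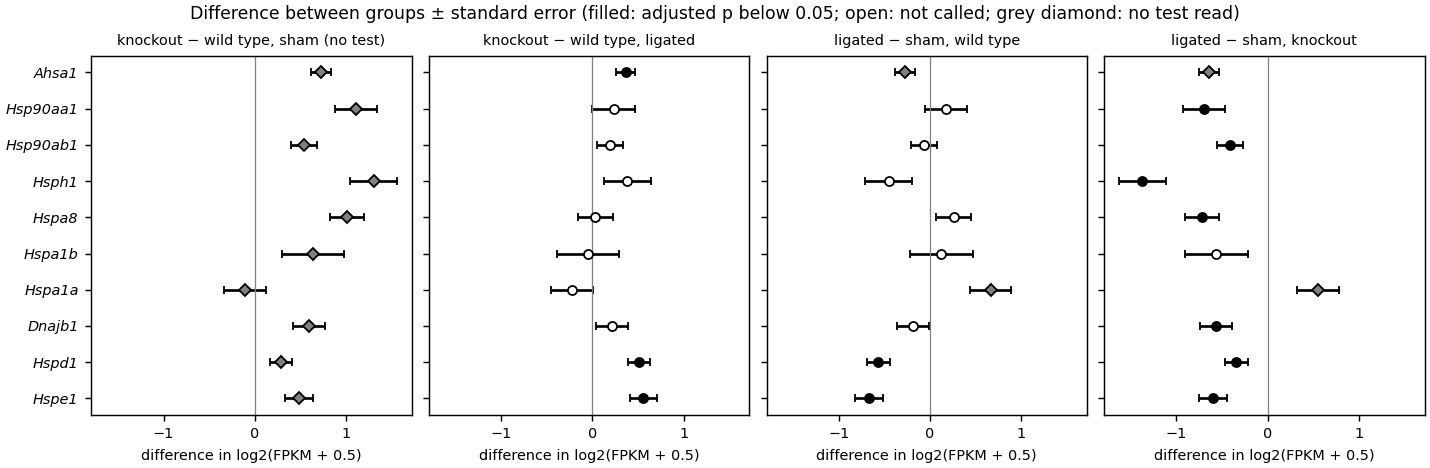
Difference in log2(FPKM + 0.5) ± standard error (horizontal axes) of the 10 chaperone genes in 4 comparisons, with filled circles where the limma adjusted p was below 0.05, open circles where it was not and grey diamonds where no test was read. The sham panel lies right of 0 for 9 genes, and the ligation panel of the knockout lies left of 0 for 9 genes.

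In knockout mice, 7 chaperone genes were lower in ligated than in sham livers, with the largest differences in Hsph1 and Hspa8, and Hspa1b did not pass the test. Hsph1 was at 8.76, 3.57, 2.59, 8.20 and 6.71 FPKM in BDL_KO, all below the 12.5 to 18.3 of Sham_KO, a log2 difference of -1.37 (SE 0.26, limma adjusted p = 0.000993). Hspe1 was at 81.4, 56.8, 55.1, 48.5 and 76.8 FPKM, below the 85.3 to 136 of Sham_KO, a difference of -0.60 (SE 0.15, limma adjusted p = 0.0081). Hspa8 was at 437, 187, 192, 261 and 245 FPKM, and BDL_KO_2359 alone lay within the Sham_KO range of 380 to 443. Its difference was -0.72 (SE 0.19, limma adjusted p = 0.00969).

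Hsp90aa1 was at 44.2, 61.3, 33.2, 74.4 and 90.1 FPKM in BDL_KO, and Hsp90ab1 at 357, 265, 217, 355 and 354, both overlapping Sham_KO. Their log2 differences were -0.70 (SE 0.23) and -0.41 (SE 0.14), with limma adjusted p-values of 0.0348 and 0.0419. Dnajb1 differed by -0.57 (SE 0.17, limma adjusted p = 0.024) and Hspd1 by -0.34 (SE 0.12, limma adjusted p = 0.0498), with overlap. Hspa1b at -0.56 was not called (limma adjusted p = 0.243), and Hspa1a, read as a value only, differed by 0.55. Thus 7 of the 8 genes other than Ahsa1 and Hspa1a were called lower and none higher, where 12.9% of all tested entries were called lower and 12.3% higher, 25.1% together. The Sham_KO libraries that chose Ahsa1 are also the baseline of this comparison, so the count is not independent of the sham contrast. Ahsa1, given without a test, was at 18.8, 14.0, 11.3, 15.4 and 17.3 FPKM in BDL_KO, all below Sham_KO.

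Without BDL_KO_2359 and BDL_KO_2248, 4 of the same 8 genes were called, all lower, and Hspa8 and Hsph1 differed by -0.86 and -1.27. The calls of Hsp90aa1, Hsp90ab1 and Dnajb1 were lost, at limma adjusted p-values of 0.242, 0.0642 and 0.0784, and Hspa1a differed by 0.78. Leaving out single libraries gave 3 calls without BDL_KO_2365 and 4 without BDL_KO_2248, Sham_KO_2349 or Sham_KO_2353. Under TPM scaling 2 genes were called, Hsph1 at -1.24 and Hspe1 at -0.42. Within libraries with Y-linked transcripts 3 were called and within libraries with Xist 1. The differences within the 2 kinds were -1.26 and -1.50 for Hsph1, -0.98 and -0.38 for Hsp90aa1, -0.40 and -0.41 for Hsp90ab1, -0.53 and -0.84 for Hspa8, -0.65 and -0.52 for Dnajb1, -0.39 and -0.27 for Hspd1, and -0.57 and -0.53 for Hspe1.

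Genes of the HSF1, co-chaperone, prefoldin and mitochondrial lists were also called lower in the knockout comparison, where 12.9% of all tested entries were called lower and 12.3% higher. In the HSF1 list 5 of 15 genes fell and none rose, among them Hspb1 by 1.56 (SE 0.33, limma adjusted p = 0.00235), Dnaja1 by 0.94 (SE 0.13, limma adjusted p = 8.29e-05) and Chordc1 by 0.80 (SE 0.14, limma adjusted p = 0.00058). Hsf1 fell by 0.59 (SE 0.11, limma adjusted p = 0.000603), from 2.55 to 3.67 FPKM in Sham_KO to 1.67 to 2.17 in BDL_KO. Of the 20 co-chaperone genes 7 fell, led by Fkbp4 at -0.76 and Stip1 at -0.67, and Hspa2 alone rose, at 1.47. Prefoldin and TRiC gave 3 lower calls of 14 (Pfdn2 at -0.43, Pfdn6 at -0.40 and Cct8 at -0.22). Mitochondrial quality control gave 5 of 12, led by Clpx, the unfoldase of the matrix protease, at -1.21, Grpel2 at -0.61 and Trap1 at -0.49. None of the 12 chaperones of the endoplasmic reticulum was called with limma or voom or was below 0.05 unadjusted with limma, with Calr at 0.19 (SE 0.21) and Hspa5 at -0.12 (SE 0.30). Beside these, Rbm3 rose by 1.25 (SE 0.32, limma adjusted p = 0.00865), with BDL_KO_2248 at 28.6 and BDL_KO_2359 at 14.6 FPKM against 4.79 to 9.56 in the other 3 libraries; 4 clock genes rose and 3 fell, and 6 of 11 immediate early genes rose. The fall of Npas2 by 1.78 and the rise of Dbp by 2.12 were the largest among the clock genes.

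Without BDL_KO_2359 and BDL_KO_2248, 18.2% of all entries were called lower and 18.8% higher. The lower calls were then 6 of 15 in the HSF1 list, 9 of 20 co-chaperones, 5 of 14 TRiC and prefoldin genes, 6 of 12 mitochondrial genes and 0 of 12 chaperones of the endoplasmic reticulum, with 1 HSF1-list gene and 2 co-chaperones called higher. Hspb1 differed by -0.98 (limma adjusted p = 0.01), Stip1 by -0.44 (limma adjusted p = 0.0221) and Clpx by -1.09 (limma adjusted p = 0.00083). Rbm3 differed by 0.62 (limma adjusted p = 0.0287), and Dbp at 1.62 was not called (limma adjusted p = 0.116). Of 15 tested clock genes, 0 were then called higher and 4 lower, so none of the rises among clock genes kept its call. Of 11 immediate early genes, 7 were called higher. With TPM and all libraries, 3 HSF1-list genes, 0 co-chaperones, 0 TRiC and prefoldin genes and 2 mitochondrial genes were called lower. The share of all entries called lower was then 4.83%. Within libraries with Y-linked transcripts, 2 HSF1-list genes, 2 co-chaperones and 2 mitochondrial genes were called lower and 1 co-chaperone higher. Within libraries with Xist, 2 HSF1-list genes were called lower. No other gene of the HSF1, co-chaperone, TRiC and prefoldin, mitochondrial and endoplasmic reticulum lists was called within either kind. Of all entries, 3.43% and 2.13% were called lower there.

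Among ligated livers, the knockout had higher levels of the mitochondrial pair and of Ahsa1. Hspd1 was at 198, 120, 158, 124 and 179 FPKM in BDL_KO and at 97.5 to 120 in BDL_Wt, a log2 difference of 0.51 (SE 0.12, limma adjusted p = 0.0161). Its 2 groups did not overlap, but BDL_KO_2365 lay at the upper edge of BDL_Wt. Hspe1 was at 48.5 to 81.4 FPKM against 37.4 to 45.9, a difference of 0.56 (SE 0.15, limma adjusted p = 0.0277). Ahsa1 was at 11.3 to 18.8 FPKM against 10.9 to 12.3, a difference of 0.36 (SE 0.11, limma adjusted p = 0.0432), with overlap through BDL_KO_2248. These are 3 of the 10 genes, all higher, where 3.46% of all tested entries were called higher and 5.37% lower, 8.83% together.

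The cytosolic HSP90 and HSP70 genes that stood highest in Sham_KO were not called between the ligated genotypes. Hspa8 differed by 0.033 (SE 0.19), Hsp90aa1 by 0.23 (SE 0.23), Hsp90ab1 by 0.19 (SE 0.14), Hsph1 by 0.38 (SE 0.26) and Dnajb1 by 0.21 (SE 0.17), with adjusted p-values of 0.395 to 0.94 (limma). These standard errors leave room for differences of either sign, and an absent call does not show equal levels. Without BDL_KO_2359 and BDL_KO_2248 the difference of Hspd1 was 0.37 (limma adjusted p = 0.0805), that of Hspe1 0.49 (limma adjusted p = 0.0837) and that of Ahsa1 0.40 (limma adjusted p = 0.0155), so Ahsa1 alone was called. Leaving out BDL_Wt_2233 gave 0 calls, and leaving out BDL_Wt_2236, BDL_KO_2359 or BDL_KO_2371 gave 1. Under TPM scaling, which moved the median of all tested entries down by 0.27, the values were 0.22, 0.27 and 0.09 and none was called (limma adjusted p = 0.19, 0.183 and 0.721). Only 6.73% of all calls were then higher. Within libraries with Y-linked transcripts and within libraries with Xist none of the 3 passed, with differences of 0.53 and 0.48 for Hspd1, 0.74 and 0.38 for Hspe1 and 0.46 and 0.30 for Ahsa1.

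Partners of the chaperones were mostly not called between the ligated genotypes. Of 15 HSF1-list genes, 20 co-chaperones, 12 mitochondrial and 12 endoplasmic reticulum genes none was called with limma (5 co-chaperones, 2 mitochondrial genes and 0 of the other genes were below 0.05 unadjusted), and of 14 TRiC and prefoldin genes 1 was, Cct7 at 0.29 (SE 0.09, limma adjusted p = 0.0474). On the recovered fragments, voom called 1 HSF1-list gene and 1 TRiC or prefoldin gene lower and none in the other 3 lists. Within libraries with Y-linked transcripts and within libraries with Xist, none of these lists held a call. Of all entries, 0.562% were called higher and 1.63% lower in the Y libraries, and 0% and 0.0569% in the Xist libraries. Over all entries, limma called 3.46% higher and 5.37% lower, and voom 1.16% higher and 10.1% lower. The list medians lay between -0.08 and 0.15, against 0.22 for the 10 chaperones and 0.014 for all tested entries. Hspa9, the mitochondrial HSP70 gene, was at 92.5 FPKM in BDL_Wt and 121 in BDL_KO, a difference of 0.37 (SE 0.12, limma adjusted p = 0.0535). The polyubiquitin gene Ubb differed by -0.047 (SE 0.13), the HSP70 exchange factor gene Bag1 by 0.31 (SE 0.14) and Fkbp4 by 0.65 (SE 0.26). Immediate early genes were lower in 6 of 11 cases, with Atf3 at -1.56 and Jun at -1.37. Within either kind of library, 0 of the 11 were called. Hepatocyte markers were called higher in 3 of 10 cases and 4 of 8 monocyte and macrophage markers lower. The part of these differences in the levels of Hspd1, Hspe1 and Ahsa1 was not tested. Without BDL_KO_2359 and BDL_KO_2248, 3 co-chaperones were called higher, Fkbp4 at 0.97 (limma adjusted p = 0.0019), Stip1 at 0.64 (limma adjusted p = 0.0134) and St13 at 0.31, while Cct7 at 0.30 was not (limma adjusted p = 0.0678). In the HSF1 list 1 gene was then called higher and 1 lower, and 2 of 11 immediate early genes were lower. None was called in the TRiC, mitochondrial and endoplasmic reticulum lists. Both cold-inducible genes, not called with all libraries, were then called lower. Cirbp was at -0.82 (limma adjusted p = 0.0265) and Rbm3 at -0.93 (limma adjusted p = 0.0132). Of all entries, 3.24% were called higher and 3.36% lower in that fit.

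**Figure D4:**
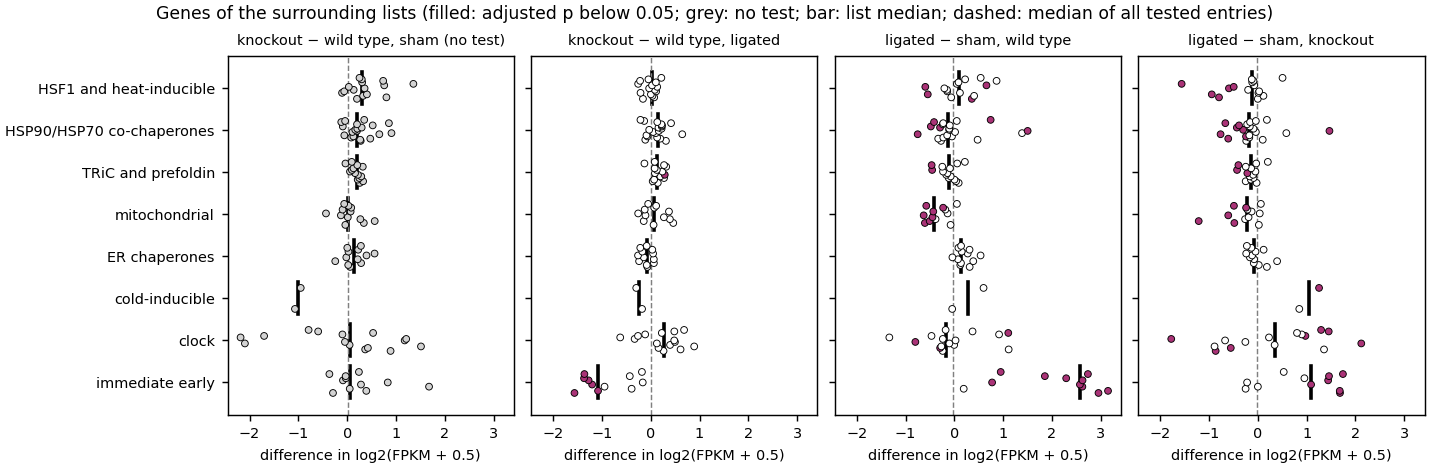
Difference in log2(FPKM + 0.5) (horizontal axes) for each tested gene of the surrounding lists in 4 comparisons, with filled points where the limma adjusted p was below 0.05, open points where it was not, grey points where no test was made, a bar at each list's median and a dashed line at the median of all tested entries. The mitochondrial list lies mostly left of the line after ligation in wild-type livers, with a median of -0.41, and the 2 cold-inducible genes lie at -1.07 and -0.95 in the sham contrast.

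Ordered by group mean, Sham_KO was highest for 9 genes. For Ahsa1 the order was Sham_KO (23.9 ± 2.31 FPKM), BDL_KO (15.3 ± 2.90), Sham_Wt (14.2 ± 0.987) and BDL_Wt (11.7 ± 0.694), of which BDL_KO and Sham_Wt overlapped and BDL_Wt lay below Sham_Wt without overlap. For Hspa8 it was Sham_KO (415 ± 22.5), BDL_KO (265 ± 102), BDL_Wt (249 ± 46.4) and Sham_Wt (207 ± 30.1), where each neighbouring pair overlapped. For Hspd1 it was Sham_KO (194 ± 11.7), Sham_Wt (159 ± 9.62), BDL_KO (156 ± 33.7) and BDL_Wt (108 ± 10.7), where of the neighbouring pairs Sham_Wt and BDL_KO overlapped. BDL_KO had the largest SD of the 4 groups for 9 genes, all but Hspe1.

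Within groups, the chaperone genes varied together to a limited degree. Each library's log2 value was taken relative to its group mean, and the relation of Ahsa1 to the 9 other genes was computed over 20 libraries, with p-values from 100000 permutations within groups. Ahsa1 followed Hsp90ab1 most closely, with r = 0.81 (permutation p = 0.0013, adjusted 0.0117) and rho = 0.75 (permutation p = 0.00351, adjusted 0.0201). For Hsph1, r was 0.72 (permutation p = 0.00784, adjusted 0.0353) and rho 0.51 (permutation p = 0.0585, adjusted 0.105). Hspe1 passed by rank only, with rho = 0.70 (permutation p = 0.00447, adjusted 0.0201) and r = 0.63 (permutation p = 0.0223, adjusted 0.0604). The other 6 had r of 0.33 to 0.68 and adjusted permutation p-values of 0.0604 to 0.437.

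The calls on these relations were lost without 2 libraries, while the coefficients stayed positive. BDL_KO_2248 was 0.41 below and BDL_KO_2359 0.30 above the group mean of Ahsa1 on the log2 scale, the farthest of the 20. Without them r was 0.67 for Hsp90ab1, 0.44 for Hsph1 and 0.62 for Hspe1, and no relation passed the adjusted permutation test. Leaving out BDL_KO_2248 or BDL_KO_2365 alone gave 0 relations past the test, leaving out Sham_KO_2353 gave 5, and leaving out Sham_Wt_2224, BDL_Wt_2235, BDL_Wt_2237 or BDL_KO_2371 gave 1. Within libraries with Y-linked transcripts and within libraries with Xist, r of Hsp90ab1 was 0.85 and 0.83, while that of Hsp90aa1 was -0.10 and 0.96. Over all 45 pairs of the 10 genes, given as a description over the same 20 libraries, 42 had a positive r, with a median of 0.47 and a range of -0.16 to 0.81. The pairs were not computed without BDL_KO_2248 and BDL_KO_2359. The libraries share depth, scaling and cell makeup across all genes.

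**Figure D5:**
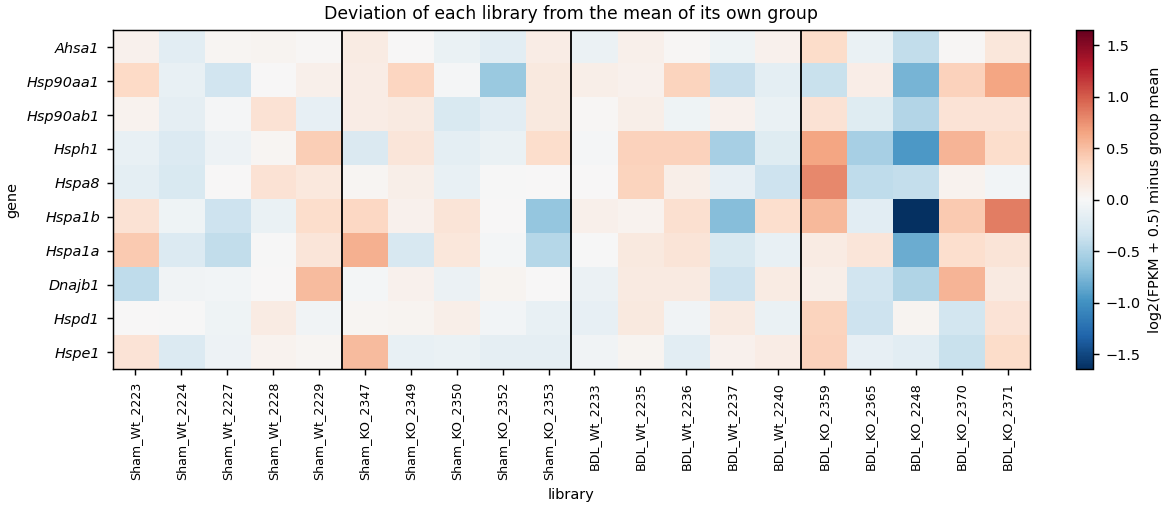
Heat map of log2(FPKM + 0.5) minus the mean of the library's own group (colour, red above and blue below) for the 10 chaperone genes (rows) in 20 libraries (columns, black lines between groups). The deviations are largest in BDL_KO, where BDL_KO_2248 is below its group mean for Ahsa1 by 0.41 and BDL_KO_2359 above it by 0.30.

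The entries most like Ahsa1 in this group-centred pattern, among 11071 with a mean of at least 1 FPKM and over 20 libraries, were Ube2l3 (r = 0.86), Serpinf1 (0.83), Mir1968 (0.82), Slc46a1 (0.82), Ppp2r5d (0.82) and Fkbp4 (0.81). Fkbp4 alone of these 6 is an HSP90 partner in the lists used here. The ranking includes BDL_KO_2248 and BDL_KO_2359, the libraries farthest from their group mean of Ahsa1, and was not computed without them. Hsp90ab1 followed at rank 7, Hsph1 at 71, Hspa1b at 135, Hspa8 at 219, Hspe1 at 238, Hsp90aa1 at 715, Dnajb1 at 1072 and Hspd1 at 1966. Fkbp4 had group means of 55.9 ± 6.98 FPKM in Sham_Wt, 89.5 ± 18.7 in Sham_KO, 33.2 ± 5.57 in BDL_Wt and 56.6 ± 21.7 in BDL_KO, the same order as Ahsa1. That order was not particular to Fkbp4. Slc46a1, with means of 14.1, 16.4, 8.29 and 14.5 FPKM in the same groups, also had it. So did Ppp2r5d, at 9.19, 9.63, 8.29 and 9.55. Ube2l3 had 13.2 ± 0.97 FPKM in Sham_Wt and 13.8 ± 1.28 in Sham_KO, which overlapped. Mir1968 is a microRNA entry with a mean of 0.484 FPKM in BDL_Wt and a minimum of 0 in both ligated groups, so its r is uncertain.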

How the data were processed

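The deposited gene table gives FPKM for 54532 entries in 20 libraries. TRIzol extraction and a VAHTS library kit were used, per the labels. The submitters' processing notes name CASAVA 1.8, fastp, HISAT2 2.0.5, featureCounts 1.5.0-p3, DESeq2 1.20.0 and the builds GRCm38 and mm10; the annotation release and the use of strand are not given in the sources used here. The deposited FPKM values of the authors are the unit of every level. Entries with at least 0.5 FPKM in at least 5 libraries (14059) were fitted as log2(FPKM + 0.5) with limma 3.58.1 in R 4.3.3, with 1 mean per group, trended and robust variance and Benjamini-Hochberg adjustment over all 14059; a call is an adjusted p below 0.05. Fold changes on this scale understate the change of low genes. Group memberships come from the sample titles. Fragments were recovered from FPKM and GENCODE M21 exonic lengths (tolerance 0.02 of a fragment) for 14943866 to 20898314 fragments per library. One fragment on 1 kb was worth 0.0467 to 0.0734 FPKM. A count model on these fragments (voom) was an alternative. The fit and the recovery were tested on simulated data. The 10 genes and all gene lists were chosen with earlier results of these data known. Genes outside the 10 were named by rule: per list and tested comparison, up to 3 called genes with the largest change or, with fewer than 2 called, the 2 most abundant, the 6 entries most like Ahsa1, and cold-inducible, clock and immediate early genes beside a result; a few other called genes were named after their values were seen. The Abcb4-deficient livers named in the series' design were not analysed here.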

Additional observations from a re-analysis of the deposited data

Results flagged for a closer look

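In 40 sets of 5 libraries (10 genes in 4 groups), 4 held a library far from the other 4 of its group, by the gap to its neighbour relative to the whole range; chance alone gives about 1 in 20. Ahsa1 was lowest in Sham_Wt_2224 at 12.5 FPKM, against 14.4 to 15.0 in the rest of that group. Hspa1a was lowest in BDL_KO_2248 at 0.0742 FPKM, against 0.607 to 0.72. Hspa1b was lowest in BDL_Wt_2237 at 2.65 FPKM, against 4.82 to 5.69. Hspe1 was highest in Sham_KO_2347 at 136 FPKM, against 85.3 to 87.7, and leaving out each library in turn gave Hspe1 a sham difference of 0.35 to 0.54.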

How the results depend on the processing

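No paired analysis was possible because the groups share no replicate numbers. Depth limits mainly Hspa1a. The cause of each change below was not tested. The ligation counts here keep Hspa1a, 1 of the 3 calls in wild-type mice. There, calls split 2 higher and 0 lower with TPM and 2 higher and 1 lower with quantile normalization, against 1 and 2. After ligation in wild-type mice, the 3 calls became 0 within libraries with Y-linked transcripts and 0 within libraries with Xist, and 2 to 3 when single libraries were left out. In the knockout, the 7 calls became 3 without a filter, 2 with TPM, 4 with quantile normalization, 3 with scaling to total fragments, 3 with voom, 1 with the 2 groups alone, 3 within Y and 1 within Xist libraries, and 3 to 7 when single libraries were left out. Between ligated genotypes, the 3 calls became 1 without a filter, 0 with TPM, 1 with quantile normalization, 0 with total fragments, 0 with voom, 0 with the 2 groups alone, 0 and 0 within Y and Xist libraries, 1 without BDL_KO_2359 and BDL_KO_2248, and 0 to 3 when single libraries were left out. The 2 relations with Ahsa1 became 4 with TPM, 1 with quantile normalization, 0 without BDL_KO_2359 and BDL_KO_2248 (the libraries farthest from the median), and 0 to 5 when single libraries were left out.

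Signs turned for members that were not called. In wild-type ligation, Hsp90ab1 became 0.26 (TPM), 0.35 (quantile), 0.13 (total fragments) and 0.13 (voom). Dnajb1 became 0.12 (TPM) and 0.12 (Y libraries), and within Xist libraries Hsp90aa1 became -0.023, Hspa1b -0.030 and Hspa8 -0.12. Between ligated genotypes, TPM gave -0.055 for Hsp90aa1, -0.095 for Hsp90ab1, -0.26 for Hspa8 and -0.058 for Dnajb1. Quantile normalization gave -0.11 for Hsp90ab1, -0.25 for Hspa8 and 0.0030 for Hspa1b. Total fragments and voom gave -0.023 and -0.023 for Hsp90ab1 and -0.18 and -0.18 for Hspa8. Y libraries gave -0.080 for Hsp90aa1 and Xist libraries 0.037 for Hspa1b. Array weights gave 0.079 for Hspa1b and -0.13 for Hspa8, and library type as covariate 0.015 for Hspa1b. Without BDL_KO_2359 and BDL_KO_2248, Hspa1a was 0.0035, Hspa1b 0.32 and Hspa8 -0.10. With single libraries left out, Hspa1b ranged from -0.26 to 0.36 and Hspa8 from -0.17 to 0.14.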

Other observations

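Among the ligated knockout livers, 1 library held the lowest level of most of the chaperone genes and the highest level of both cold-inducible genes. It was noticed after the values were seen. BDL_KO_2248 was the lowest of the 5 for 7 of the 10 genes, with Hsph1 at 2.59 FPKM against 3.57 to 8.76 in the others and Hspa1b at 1.07 against 3.88 to 8.34. In the same library Cirbp was at 21.7 FPKM, against 3.11 to 11.3, and Rbm3 at 28.6, against 4.79 to 14.6. BDL_KO_2359, the other library with few cholangiocyte transcripts, was the highest of the 5 for 6 genes, with Hspa8 at 437 FPKM against 187 to 261, and had the next highest Cirbp at 11.3 and Rbm3 at 14.6. These are single libraries and nothing was tested.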
